A study of Homo sapiens with 18 samples.

Results

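The genes described here encode the DNA polymerases and partner proteins that let replication pass or restart beyond a block. They were POLH, POLK, POLI, REV1, REV3L, MAD2L2, RAD18, PRIMPOL, POLQ and POLN, taken by symbol from the deposited table, and all 10 of 10 had a row among its 25296 genes. All 10 passed the filter on low counts, which left 18226 tested genes. The cells were U2OS, an established human osteosarcoma line with wild-type p53, in 3 derived lines. One carried the empty retroviral vector MigR1 (EV), one carried wild-type DNMT3A (WT) and one a mutant of it (MUT). The enzyme DNMT3A adds methyl groups to DNA, and its mutation reads R882C in the series title and R882H in the sample labels. RNA was taken from untreated cells of each line and from cells given 10 µM cytarabine (ara-C) for 24 h, a nucleoside drug that blocks DNA chain growth once incorporated. The 6 groups of 3 biological replicates gave 18 RNA sequencing libraries with 15.4 to 21.9 M estimated counts each. For the cells without drug the series text speaks of vehicle, whereas their own labels say untreated. All lines also carry the DNMT3A of U2OS itself, and whether a line is 1 clone is not given in the sources used here.

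A stalled replication fork can be carried on in more than one way. In translesion synthesis, RAD18 attaches ubiquitin to the sliding clamp PCNA, and low-fidelity polymerases then replace the replicative enzyme across the damaged base. In repriming, PRIMPOL lays down a new primer beyond the block and leaves a single-stranded gap to be filled later. POLQ joins broken ends that share short homologies and also acts on such gaps.

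The labels were checked on DNMT3A, which ran from 26.2 to 49.6 CPM in EV, 129 to 182 CPM in WT and 254 to 615 CPM in MUT (counts per M of the scaled library size). The widest range belonged to untreated MUT, with 500, 615 and 254 CPM. That group also had the least alike replicates, with a chi-square per degree of freedom between 21.2 and 46.8 over its library pairs against 2.45 to 15.2 in the other groups. Of the osteoblast and mesenchymal markers, RUNX2 ran from 29.6 to 53.2 CPM, SPARC from 805 to 1170 CPM and VIM from 967 to 2600 CPM. ALPL ran from 6.27 to 15 CPM, COL1A2 reached at most 8.11 CPM and BGLAP at most 0.437 CPM, and SP7 and IBSP had no row in the deposited table. The summed level of the 8 markers measured of 10 listed was 3170 to 3960 CPM untreated and 2290 to 2750 CPM after cytarabine, most of it from VIM and SPARC. The 4 blood markers measured summed to at most 1.60 CPM in any library. Among the 6 epithelial markers, the summed level was 468 to 984 CPM, nearly all of it from KRT8 and KRT18, and EPCAM reached at most 4.01 CPM. The part of these shifts in the results below was not tested.

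The members were transcribed at very different levels. To compare genes, CPM was divided by the length of the canonical GENCODE transcript, which ran from 1.05 kb (MAD2L2) to 14.62 kb (POLK). In untreated EV, MAD2L2 came first at 64.0 ± 1.73 CPM per kb (SD, n = 3). It was followed by REV1 at 9.04 ± 0.405 and RAD18 at 8.82 ± 0.0800, whose libraries overlapped, then by POLH at 7.47 ± 0.445, PRIMPOL at 6.04 ± 0.114, POLQ at 4.19 ± 0.483 and REV3L at 3.27 ± 0.0760 CPM per kb. POLK at 0.987 ± 0.0345, POLI at 0.629 ± 0.143 and POLN at 0.498 ± 0.132 CPM per kb were the lowest, and POLI and POLN overlapped. RAD18 stood above REV1 in untreated WT, without overlap, and level with it in untreated MUT, and POLN stood above POLI in both, at 0.701 and 0.606 CPM per kb in WT with overlap and 0.565 and 0.359 in MUT without. After cytarabine POLH held the second place in every line, at 10.2, 11.8 and 10.7 CPM per kb in EV, WT and MUT, and lay above REV1 and RAD18 in all 9 treated libraries and in none of the 9 untreated ones. These levels depend on the length used. Over all annotated exons (5.43 kb) MAD2L2 in untreated EV came to 12.4 CPM per kb, and POLH at 7.47 was already above RAD18 at 7.39 CPM per kb without treatment. On that length the untreated mean of POLH was above that of REV1 in every line. The means were 7.47 and 5.5 in EV, 6.98 and 5.01 in WT and 6.63 and 5.81 CPM per kb in MUT. RAD18 stayed above POLH in untreated WT and MUT, at 7.98 and 8.03 CPM per kb.

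The starts of these genes were examined because DNMT3A methylates CpG sites. RefSeq promoter windows (GRCh38.p14, 250 bases before to 50 after a start) were at hand for all 10 genes, as 12 windows, with 2 each for REV3L and MAD2L2. Those of the members that rose in every line (POLH and POLQ), of PRIMPOL and of RAD18, the member with the largest fall, read as follows, from chr6:43575935-43576234 (plus strand), chr3:121545939-121546238 (minus strand), chr4:184649488-184649787 (plus strand) and chr3:8963423-8963722 (minus strand). Capitals mark any of the motifs searched on both strands, which may overlap.
POLH: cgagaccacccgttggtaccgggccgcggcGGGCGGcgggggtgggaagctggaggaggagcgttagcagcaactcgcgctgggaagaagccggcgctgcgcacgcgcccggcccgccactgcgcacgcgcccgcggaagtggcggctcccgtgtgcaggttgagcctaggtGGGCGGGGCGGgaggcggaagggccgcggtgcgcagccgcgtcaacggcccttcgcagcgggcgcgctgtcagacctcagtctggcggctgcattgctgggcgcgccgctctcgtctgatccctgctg
POLQ: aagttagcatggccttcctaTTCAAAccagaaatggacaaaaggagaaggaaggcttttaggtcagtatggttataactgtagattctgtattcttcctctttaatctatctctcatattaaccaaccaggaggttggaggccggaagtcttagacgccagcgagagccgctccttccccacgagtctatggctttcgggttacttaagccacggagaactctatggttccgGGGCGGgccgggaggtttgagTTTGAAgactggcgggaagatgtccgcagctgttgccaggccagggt
PRIMPOL: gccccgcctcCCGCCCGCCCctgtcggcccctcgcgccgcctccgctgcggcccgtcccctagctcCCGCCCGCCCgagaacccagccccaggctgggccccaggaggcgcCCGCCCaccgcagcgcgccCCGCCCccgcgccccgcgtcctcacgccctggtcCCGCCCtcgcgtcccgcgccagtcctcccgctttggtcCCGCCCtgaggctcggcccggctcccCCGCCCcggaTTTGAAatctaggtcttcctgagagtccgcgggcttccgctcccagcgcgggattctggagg
RAD18: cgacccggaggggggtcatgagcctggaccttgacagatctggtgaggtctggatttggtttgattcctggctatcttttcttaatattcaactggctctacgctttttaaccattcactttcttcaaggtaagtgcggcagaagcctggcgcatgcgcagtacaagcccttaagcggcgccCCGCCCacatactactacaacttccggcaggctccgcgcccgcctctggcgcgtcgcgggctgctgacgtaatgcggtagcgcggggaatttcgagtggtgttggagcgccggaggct

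POLH and PRIMPOL start in CpG-rich sequence, with 43 and 40 CpG in the window and a GC content of 74.7% and 78.7%. The POLQ window had 12 CpG and 50.3% GC and the RAD18 window 24 CpG and 57.7% GC, against medians of 14 CpG and 58.7% over 35116 promoters. Over the 12 windows the GC content ran from 50.3% to 80.7%, and all but those of POLQ and RAD18 lay above the median. In what follows a member counts if any of its windows holds the motif, whereas the shares are of single windows. The GC box GGGCGG stood in a window of 9 of the 10 genes, against 45.0% of all promoters. The cell cycle element CHR (TTTGAA) was found in POLQ and PRIMPOL, against 15.2% of all promoters. An E2F site (TTTCCCGC, TTTCGCGC, TTTGCCGC or TTTGGCGC) was found in the window of POLI and in 1 of the 2 of REV3L, against 3.3%. The CCAAT box (CCAAT) was found in 1 gene, MAD2L2, in 1 of its 2 windows, against 34.6%. A single copy of the p53 motif was found in the window of no member, against 6.6% of all promoters. A match describes letters in a window and is not a site of binding.

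**Figure D1:**
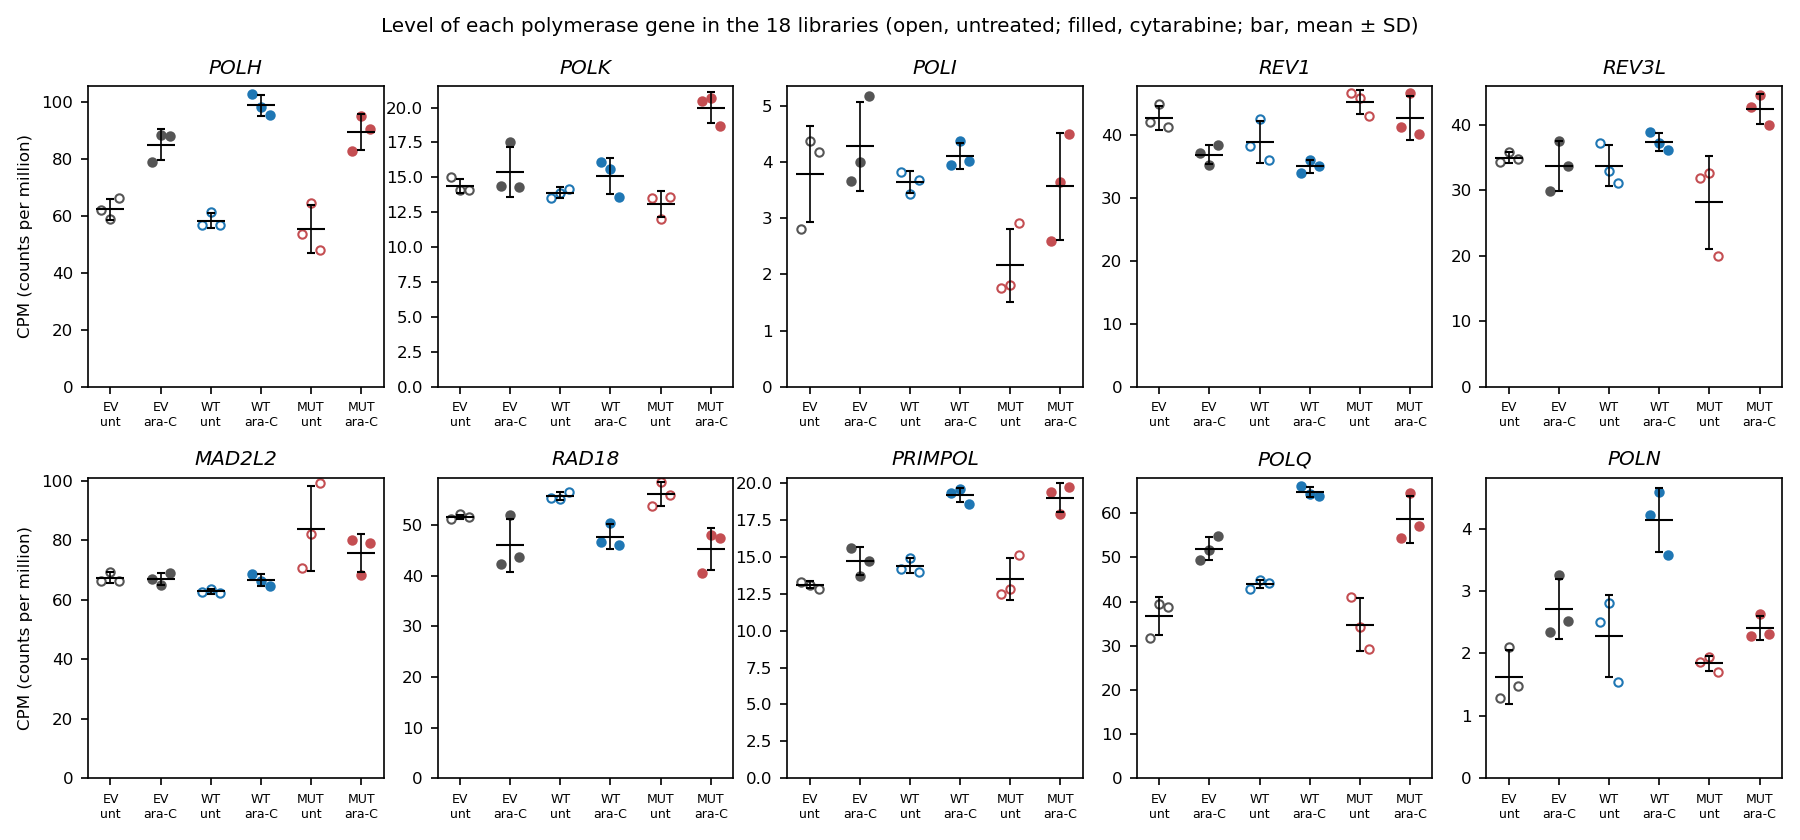
Level of each gene in CPM (y axis, from 0) in the 18 libraries by group (x axis; unt, untreated; ara-C, cytarabine), with points for libraries and bars for mean ± SD of 3. POLH and POLQ show treated libraries above untreated ones in every line, and MAD2L2 spreads most in untreated MUT.

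The first question was how cytarabine changed these genes in each line. POLH and POLQ rose in all 3 lines, by 1.36 to 1.70 times and 1.42 to 1.68 times. POLN rose in EV and WT, PRIMPOL in WT and MUT, and POLK, POLI and REV3L in MUT. RAD18 fell in WT and MUT and REV1 in EV, and MAD2L2 passed the test in no line. In EV 3 of the 10 genes were higher and 1 lower, in WT 4 were higher and 1 lower, and in MUT 6 were higher and 1 lower, at an edgeR quasi-likelihood adjusted p under 0.05 (Benjamini-Hochberg over all tested genes). Of all tested genes the share higher was 26.1% in EV, 26.3% in WT and 30.4% in MUT, and the share lower was 22.9%, 22.7% and 25.9%. The members' median log2 fold change was 0.13, 0.16 and 0.54 in EV, WT and MUT, against 0.05, 0.03 and 0.05 over all tested genes. Calls higher in all 3 lines covered 2 of the 10 members and 18.9% of all tested genes. In EV the treated libraries lay wholly above the untreated ones for 4 members and wholly below for 1. The numbers were 6 and 2 in WT and 6 and 1 in MUT. Of all tested genes 58.7%, 65.3% and 56.6% had no overlap between treatments in EV, WT and MUT. In bulk RNA a change in the share of cells that hold a transcript and a change in its amount per cell cannot be told apart.

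The Y-family polymerases insert bases opposite damaged templates. POLH (chromosome 6, 43576150 to 43615661, plus strand of hg38) encodes polymerase eta, which copies ultraviolet lesions accurately and whose gene responds to p53. Its untreated libraries held 62.1, 59.1 and 66.5 CPM in EV, 56.9, 61.4 and 56.9 CPM in WT and 53.6, 64.7 and 48.2 CPM in MUT. After cytarabine they held 78.9, 88.6 and 88.2 CPM in EV, 103, 98.5 and 95.5 CPM in WT and 82.9, 95.4 and 90.5 CPM in MUT. Treated and untreated libraries did not overlap in any line, and even the lowest treated library lay above every untreated one. The log2 fold change was 0.45 (SE 0.0897) in EV, 0.76 (SE 0.0894) in WT and 0.69 (SE 0.0897) in MUT, with edgeR adjusted p of 0.00038, 9.81e-07 and 2.39e-06. POLH shares 261 exonic bases with GTPBP2 on the opposite strand, and the strand setting of the counting is not given in the sources used here. GTPBP2 changed by 0.37 in EV, 0.16 in WT and 0.49 in MUT on the log2 scale, of which the EV and MUT values passed the test. The antisense gene POLH-AS1, inside POLH without shared exonic bases, rose in every line (EV 1.90 ± 0.0756 against 3.12 ± 0.633 CPM, WT 2.04 ± 0.300 against 3.43 ± 0.377 CPM, MUT 1.22 ± 0.136 against 2.50 ± 0.404 CPM, SD, n = 3).

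POLK (chromosome 5, 75511756 to 75601145, plus strand) encodes polymerase kappa, which bypasses bulky guanine adducts and extends mismatched ends. Untreated libraries were close in all lines, with 15.0, 14.1 and 14.1 CPM in EV, 13.5, 13.9 and 14.2 CPM in WT and 13.5, 12 and 13.6 CPM in MUT. Treated libraries held 14.4, 17.5 and 14.3 CPM in EV, 16.1, 15.6 and 13.6 CPM in WT and 20.5, 20.7 and 18.7 CPM in MUT. The 3 treated MUT libraries lay above all 15 other libraries, whereas treated and untreated libraries overlapped in EV and WT. The rise in MUT was 0.61 on the log2 scale (SE 0.0980, edgeR adjusted p 2.94e-05). The changes of 0.09 (95% interval -0.12 to 0.30) in EV and 0.12 (-0.08 to 0.33) in WT did not pass the test.

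POLI (chromosome 18, 54269404 to 54321267, plus strand) encodes polymerase iota, an error-prone enzyme that pairs bases in an unusual geometry. It had 29 to 121 counts per library, so its values carry a large counting error. Untreated libraries held 2.80, 4.38 and 4.18 CPM in EV, 3.83, 3.44 and 3.68 CPM in WT and 1.76, 1.82 and 2.91 CPM in MUT. Treated libraries held 3.67, 4 and 5.17 CPM in EV, 3.94, 4.38 and 4.01 CPM in WT and 2.59, 3.64 and 4.49 CPM in MUT. Treated and untreated MUT libraries overlapped, and the log2 change of 0.72 (SE 0.242) had an edgeR adjusted p of 0.0158. That call was lost without untreated MUT replicate 1, untreated MUT replicate 2 or treated MUT replicate 3, at 0.59, 0.58 and 0.52, and with the 2 groups fitted alone, inside an adjusted p range of 0.00354 to 0.103 over all alternatives in edgeR and DESeq2.

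REV1 (chromosome 2, 99400475 to 99490036, minus strand) inserts cytosine and serves as the scaffold on which the other translesion polymerases meet. It moved the other way from POLH. In EV it went from 42.0, 44.9 and 41.3 CPM to 37.1, 35.3 and 38.4 CPM, with no overlap. In WT it went from 38.3, 42.5 and 36.0 to 33.9, 36.0 and 35.1 CPM and in MUT from 46.7, 45.8 and 43.0 to 41.3, 46.6 and 40.1 CPM. The log2 change of -0.21 in EV (SE 0.0760) passed the test with an edgeR adjusted p of 0.0276. It did not pass without untreated replicate 2 or treated replicates 1 or 2, nor with upper-quartile factors, where it was -0.13, nor with the filter at 50 mean counts, with an adjusted p of 0.003 to 0.163 over all alternatives in edgeR and DESeq2. In WT and MUT the changes were -0.15 (95% interval -0.31 to 0.00) and -0.08 (-0.24 to 0.07), and the WT change passed with the authors' factors, at -0.21. REV1 shares 852 exonic bases with EIF5B on the opposite strand, which fell in every line (461 ± 11.6 CPM untreated against 322 ± 48.2 CPM treated in EV, SD, n = 3). The log2 change of EIF5B was -0.52 in EV, -0.46 in WT and -1.04 in MUT, and the part of that overlap was not tested.

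Polymerase zeta extends the primer after a Y-family enzyme has inserted a base. Its catalytic subunit REV3L (chromosome 6, 111299028 to 111483716, minus strand) rose in MUT. There it went from 31.9, 32.6 and 20 CPM to 42.8, 44.5 and 40.0 CPM, so that the third untreated replicate was far below the other two. In EV it went from 34.4, 35.9 and 34.8 to 29.9, 37.5 and 33.7 CPM and in WT from 37.2, 33.0 and 31.1 to 38.9, 37.2 and 36.2 CPM. The log2 change was 0.59 in MUT (SE 0.129, edgeR adjusted p 0.000692) and 0.36 without untreated MUT replicate 3, still past the test. In EV and WT it was -0.06 (95% interval -0.33 to 0.21) and 0.15 (-0.12 to 0.42).

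MAD2L2 (chromosome 1, 11674480 to 11691651, minus strand) encodes REV7, the accessory subunit of polymerase zeta and also a part of shieldin, which limits the trimming of broken ends. Its levels hardly moved in EV, from 66.5, 69.5 and 66.2 CPM to 66.9, 65.1 and 69.2 CPM. In WT they went from 62.8, 63.8 and 62.2 to 68.8, 66.3 and 64.7 CPM, with no overlap. Untreated MUT libraries held 70.6, 82.2 and 99.3 CPM and treated ones 80.0, 68.4 and 79.0 CPM. The log2 changes of -0.01, 0.08 and -0.15 in EV, WT and MUT had 95% intervals of -0.20 to 0.18, -0.11 to 0.27 and -0.34 to 0.04. The MUT change passed the test without untreated MUT replicate 1, at -0.26 with an edgeR adjusted p of 0.0121, and with the authors' factors. It was -0.04 without untreated MUT replicate 3, the library with the most MAD2L2, and -0.08 without treated MUT replicate 2, with adjusted p between 0.0121 and 0.673 in all the alternatives.

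RAD18 (chromosome 3, 8775402 to 8963774, minus strand), the ubiquitin ligase that opens the translesion route, was lower after cytarabine. In WT it went from 55.3, 55.2 and 56.6 CPM to 46.6, 50.5 and 46.0 CPM and in MUT from 53.8, 58.5 and 56.0 to 40.6, 48.0 and 47.4 CPM, with no overlap in either line. In EV it went from 51.2, 52.1 and 51.6 to 42.3, 51.9 and 43.7 CPM, where the second treated replicate reached the untreated range. The log2 change was -0.22 (SE 0.0784, edgeR adjusted p 0.0234) in WT, -0.31 (SE 0.0785, edgeR adjusted p 0.00259) in MUT and -0.17 (SE 0.0792, edgeR adjusted p 0.0837) in EV. The EV change was -0.26 without treated EV replicate 2 and -0.24 with the authors' factors, and passed the test in both. It was -0.10 with upper-quartile factors and -0.11 both with the filter at 50 mean counts and without treated EV replicate 1, and the adjusted p ran from 0.00927 to 0.304 over all alternatives in edgeR and DESeq2. The WT call was lost without any of untreated replicates 1 and 3 and treated replicates 1 and 3, with values of -0.23 to -0.20 and an adjusted p of 0.00112 to 0.0909 over all alternatives in edgeR and DESeq2.

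PRIMPOL (chromosome 4, 184649613 to 184694964, plus strand), the primase that restarts synthesis beyond a block, went from 14.2, 14.9 and 14 CPM to 19.3, 19.6 and 18.6 CPM in WT and from 12.5, 12.8 and 15.1 to 19.4, 17.9 and 19.7 CPM in MUT. In EV it went from 13.3, 13.1 and 12.8 to 15.6, 13.7 and 14.7 CPM. Treated libraries lay above untreated ones in each line. The rises of 0.41 in WT (SE 0.0883, edgeR adjusted p 0.000651) and 0.50 in MUT (SE 0.0888, edgeR adjusted p 9.13e-05) passed the test. The EV change of 0.17 (SE 0.0908, edgeR adjusted p 0.131) passed it under upper-quartile factors, at 0.25, and with the filter at 50 mean counts, at 0.23. It was 0.10 with the authors' factors and 0.12 without treated EV replicate 1, and the adjusted p ran from 0.0333 to 0.437 over all alternatives in edgeR and DESeq2. In GENCODE, PRIMPOL shares 18.6% of its exonic bases with CENPU on the opposite strand, whereas in the deposited coordinates both genes overlap by 347 bases. The log2 change of CENPU was -0.04 in EV, 0.17 in WT and -0.09 in MUT, of which the WT value passed the test. None of the deposited counts of PRIMPOL was whole to within 0.05, so part of its reads was assigned by estimation.

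The remaining members are A-family polymerases. POLQ (chromosome 3, 121431427 to 121546642, minus strand) encodes polymerase theta. It went from 31.8, 39.4 and 38.7 CPM to 49.5, 51.7 and 54.9 CPM in EV, from 42.9, 44.8 and 44.1 to 66.2, 64.3 and 63.9 CPM in WT and from 41.1, 34.2 and 29.2 to 54.4, 64.5 and 57.0 CPM in MUT. Every treated library lay above every untreated library of any line. The log2 fold change was 0.51 (SE 0.103), 0.56 (SE 0.1) and 0.75 (SE 0.102) in EV, WT and MUT, with edgeR adjusted p of 0.000412, 0.000121 and 4.34e-06. For POLH and POLQ the calls in the 3 lines held in every alternative run.

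POLN (chromosome 4, 2071918 to 2242122, minus strand) encodes polymerase nu, whose cellular role is less settled. It had 22 to 91 counts per library and is among the faintest members. It went from 1.29, 2.10 and 1.48 CPM to 2.35, 3.25 and 2.52 CPM in EV, from 2.50, 2.80 and 1.54 to 4.22, 4.59 and 3.58 CPM in WT and from 1.86, 1.95 and 1.71 to 2.28, 2.63 and 2.31 CPM in MUT. Treated libraries lay above untreated ones in each line. The rises of 0.73 in EV (SE 0.245, edgeR adjusted p 0.0189) and 0.85 in WT (SE 0.229, edgeR adjusted p 0.00439) passed the test, and the change of 0.39 in MUT (SE 0.240, edgeR adjusted p 0.178) did not. The EV call was lost without untreated replicate 1, untreated replicate 3 or treated replicate 2, with an adjusted p of 0.00838 to 0.0945 over all alternatives in edgeR and DESeq2. POLN shares 686 exonic bases with HAUS3 on the same strand, and none of its 18 deposited counts was whole to within 0.05, so part of its reads was assigned by estimation. HAUS3 did not pass the test in any line, at -0.02, -0.09 and 0.10 on the log2 scale.

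**Figure D2:**
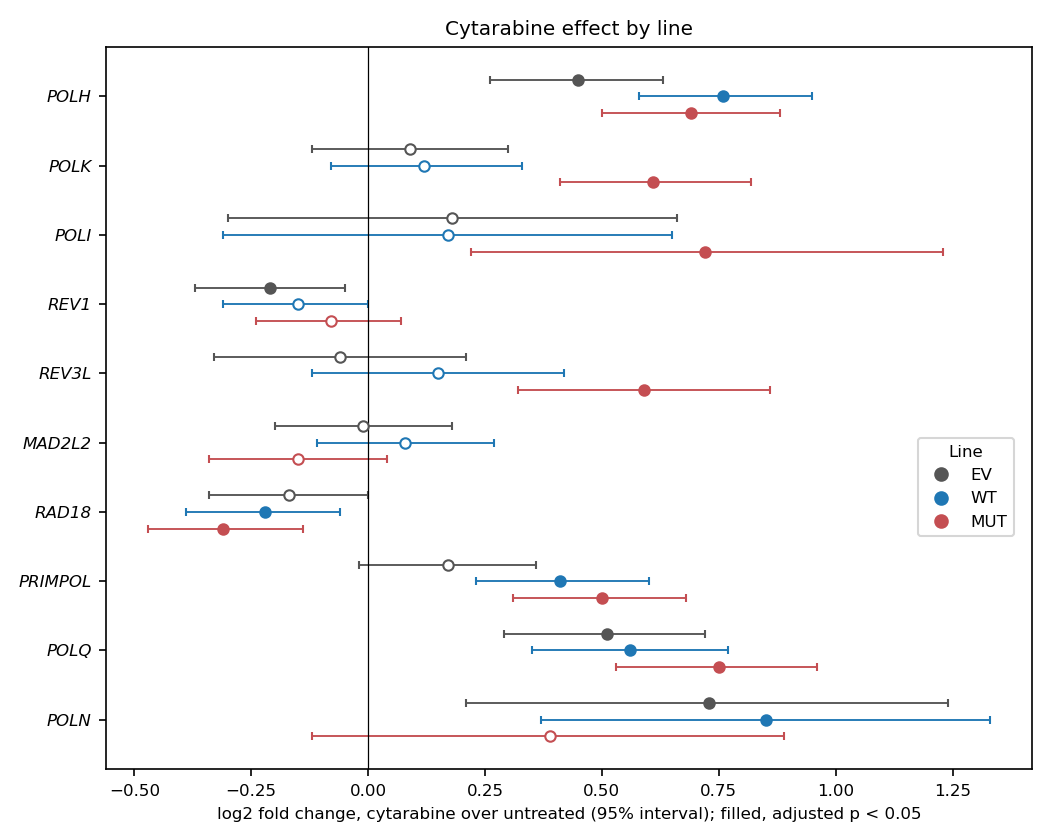
Log2 fold change of cytarabine over untreated (x axis) with its 95% interval for each gene (y axis) in EV, WT and MUT. Filled points passed the edgeR test, which holds in all 3 lines for POLH and POLQ, and in MUT but not in EV or WT for POLK, POLI and REV3L.

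Whether the response differed between the lines was tested directly. None of the 10 genes passed in any of the 3 differences of effects, by edgeR's quasi-likelihood F test, adjusted by Benjamini-Hochberg over all tested genes, of which 0.214% passed for MUT minus EV, 1.00% for MUT minus WT and 0.285% for WT minus EV. At an unadjusted p under 0.05 there were 3 members (POLK, PRIMPOL and REV3L) for MUT against EV, 2 (POLK and REV3L) for MUT against WT and 1 (POLH) for WT against EV, beside 15.8%, 15.4% and 9.96% of all tested genes. The DESeq2 test called 2, 0 and 0 members, beside 553, 797 and 137 of 25296 genes. POLK had the smallest adjusted p in edgeR, with a difference of 0.52 (95% interval 0.23 to 0.81, adjusted p 0.106) against EV and 0.49 (0.20 to 0.78, adjusted p 0.0948) against WT. For REV3L the difference was 0.65 (0.27 to 1.03, edgeR adjusted p 0.118) against EV and 0.44 (0.06 to 0.82, edgeR adjusted p 0.246) against WT. In DESeq2 the differences against EV were 0.49 for POLK and 0.61 for REV3L, with adjusted p of 0.0467 and 0.0343. REV3L also passed in edgeR without untreated MUT replicate 1 or 2, with adjusted p of 0.0356 and 0.0428, over a range of 0.0343 to 0.334 for all its alternatives. For this difference those fits called 666 of 18663 and 335 of 18652 tested genes, against 39 of 18226 in the main fit. Without untreated MUT replicate 3, the library with the least REV3L, its differences were 0.42 against EV and 0.22 against WT, with edgeR adjusted p of 0.0915 and 0.382. For POLI the differences were 0.54 (-0.16 to 1.24) and 0.55 (-0.14 to 1.25). The PRIMPOL difference from EV was 0.33 (0.06 to 0.59, edgeR adjusted p 0.225) for MUT and 0.24 (-0.02 to 0.51, edgeR adjusted p 0.549) for WT. A call in MUT and not in EV or WT is therefore not shown to be a different response for POLK, POLI or REV3L at this sample size and threshold. Nor is the PRIMPOL call in WT and MUT and not in EV shown to be a different response.

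The lines were next compared within each treatment. These comparisons share their libraries, so values are given side by side. Untreated, 2 members passed the test for MUT against EV (19.9% of all tested genes), 0 for WT compared with EV (11.7%) and 3 for MUT compared with WT (21.2%). In the same order, 30.4%, 40.3% and 31.9% of all tested genes had no overlap between the libraries compared. For WT against EV 1 member, POLQ, had an unadjusted edgeR p under 0.05, as had 24.0% of all tested genes. DESeq2 called 0 members and 2313 of 25296 genes there. MAD2L2 was higher in MUT than in EV by 0.32 on the log2 scale (SE 0.0913, edgeR adjusted p 0.0195) and than in WT by 0.42 (SE 0.0912, edgeR adjusted p 0.0029). All 3 untreated MUT libraries lay above all EV and WT libraries, of either treatment. Without untreated MUT replicate 3 the difference from EV was 0.20 and no longer passed, and it was also lost without untreated EV replicate 1 or 3, with an adjusted p of 0.00124 to 0.153 over all alternatives.

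POLI was lower in untreated MUT than in EV and WT, by -0.81 (SE 0.245, edgeR adjusted p 0.0255) and -0.75 (SE 0.244, edgeR adjusted p 0.033) on the log2 scale. Its MUT and EV libraries overlapped. The calls were lost without untreated MUT replicate 1 (-0.67 and -0.62) or 2 (-0.68 and -0.62), without untreated EV replicate 2 or 3, and without any single untreated WT library, with adjusted p from 0.00713 to 0.127 over all alternatives. POLQ was lower in MUT than in WT by -0.33 (SE 0.103, edgeR adjusted p 0.0274). Without untreated MUT replicate 3 this was -0.19 and did not pass, and it did not pass either without untreated MUT replicate 2 or any single untreated WT library, with an adjusted p of 0.0023 to 0.158 over all alternatives. In fits of only the compared groups none of these 5 untreated differences passed. Those fits called 935 of 16048 tested genes for MUT against EV and 1171 of 16356 for MUT against WT.

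Under cytarabine, 2 members passed for MUT against EV (14.0% of all tested), 2 for WT compared with EV (16.5%) and 3 for MUT compared with WT (19.8%). In the same order, 33.6%, 37.1% and 45.5% of all tested genes had no overlap between the libraries compared. PRIMPOL was higher than in EV in both DNMT3A lines, by 0.37 in MUT (SE 0.0877, edgeR adjusted p 0.00777) and 0.38 in WT (SE 0.0880, edgeR adjusted p 0.00536), and both calls held in every alternative run. The lowest PRIMPOL level in the treated WT and MUT libraries was 17.9 CPM and the highest in treated EV was 15.6 CPM. CENPU, which shares exonic bases with PRIMPOL, was also higher than in treated EV. Its differences were 0.29 in MUT (edgeR adjusted p 0.00449) and 0.30 in WT (edgeR adjusted p 0.00297). Untreated, CENPU differed from EV by 0.34 in MUT, which passed, and by 0.09 in WT, which did not. The part of that overlap in the PRIMPOL differences was not tested. POLK was higher in MUT than in EV by 0.38 (SE 0.0964, edgeR adjusted p 0.0126) and than in WT by 0.40 (SE 0.0963, edgeR adjusted p 0.00579). The second of these held in every alternative, and the first was lost without treated EV replicate 1 or 3 or treated MUT replicate 2, with adjusted p from 0.0048 to 0.0736.

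POLQ was higher in treated WT than in treated EV by 0.31 (SE 0.0996, edgeR adjusted p 0.0355). That call was lost on leaving out any 1 of the 6 libraries compared, at 0.28 to 0.36, with an adjusted p of 0.00491 to 0.116 over all alternatives. REV1 was higher in treated MUT than in treated WT by 0.29 (SE 0.0753, edgeR adjusted p 0.0108), a call lost without treated WT replicate 1 or treated MUT replicate 2, with an adjusted p of 0.00456 to 0.0721 over all alternatives. Untreated, REV1 was also higher in MUT than in WT, by 0.21 (SE 0.0756, edgeR adjusted p 0.0502). That value lay just outside the threshold, and the untreated libraries did not overlap. POLN was lower in treated MUT than in treated WT by -0.78 (SE 0.225, edgeR adjusted p 0.0195), with no overlap between libraries. It did not pass without treated WT replicate 1 or 2 or treated MUT replicate 1 or 3, with an adjusted p of 0.0057 to 0.0855 over all alternatives.

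**Figure D3:**
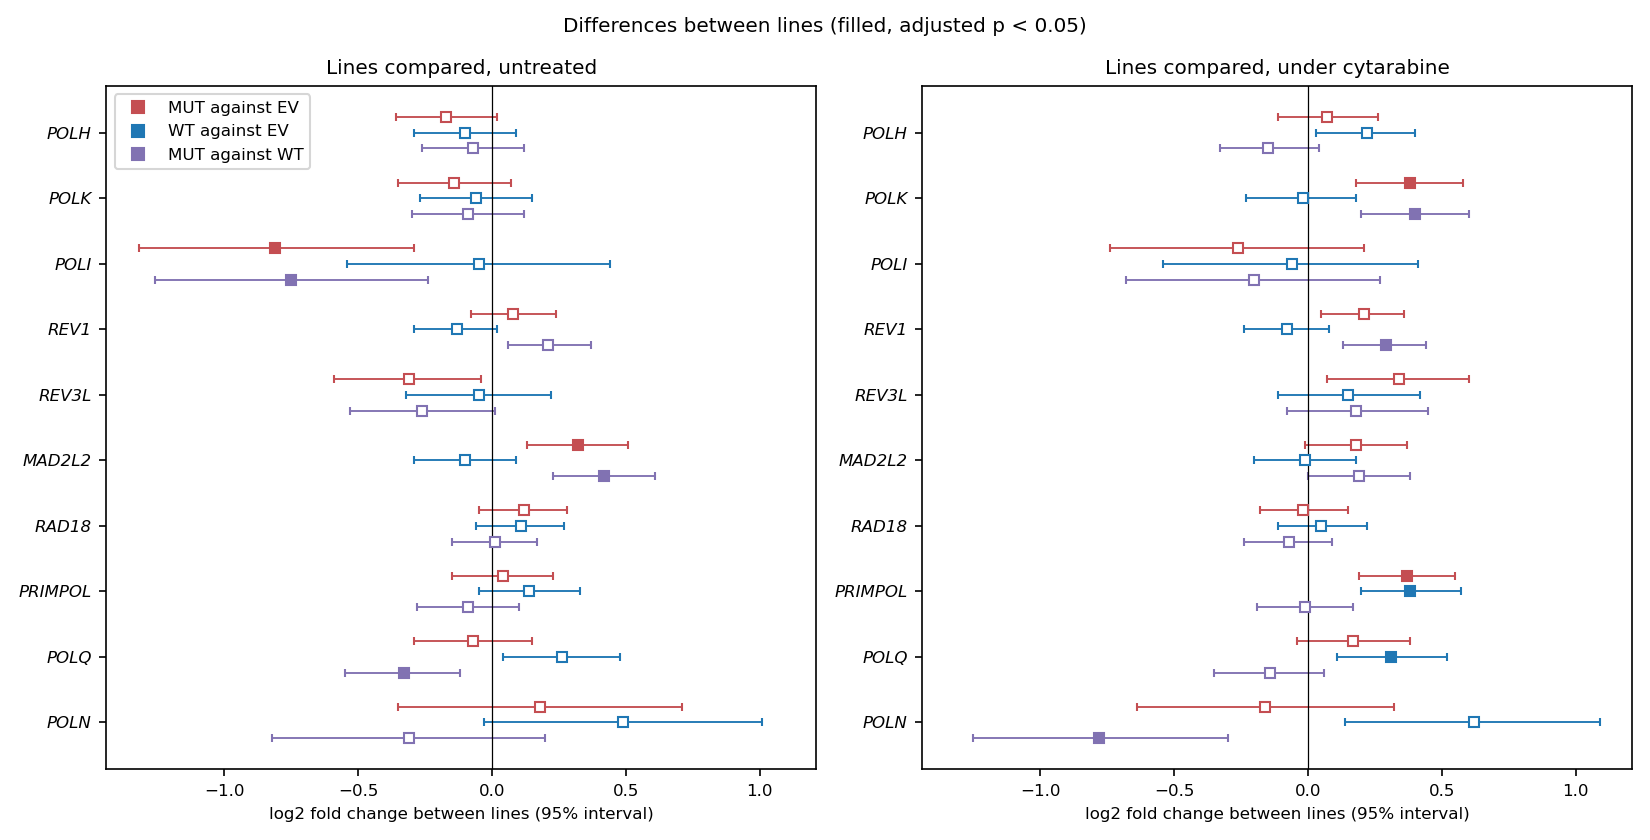
Log2 fold change between lines (x axis) with its 95% interval for each gene (y axis), untreated on the left and under cytarabine on the right, with filled squares past the edgeR test. PRIMPOL passed against EV in both DNMT3A lines under cytarabine and in neither line untreated. Its differences of cytarabine effects against EV, 0.33 for MUT and 0.24 for WT, did not pass.

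The other genes of these routes were counted in 4 lists, to be read against the shares of all tested genes that were higher (26.1%, 26.3% and 30.4% in EV, WT and MUT) or lower (22.9%, 22.7% and 25.9%). Of 16 genes listed for PCNA ubiquitination and its control, PCNA itself among them, 1 was higher and 7 lower in EV, 2 higher and 7 lower in WT and 3 higher and 7 lower in MUT, and the median log2 change was -0.15, -0.03 and -0.11. In all 3 lines 1 was higher and 7 lower, against 18.9% and 16.4% of all tested genes. HLTF, a ligase that extends ubiquitin chains on PCNA and remodels forks, rose by 0.58, 0.55 and 0.71 in EV, WT and MUT (SE 0.0757, 0.0753 and 0.0751). USP7 and USP10, which remove ubiquitin, fell. USP7 changed by -0.76, -0.73 and -0.96 and USP10 by -0.55, -0.58 and -0.55. ZRANB3, a translocase that binds the ubiquitin chains, changed by -0.58, -0.46 and -0.65, from 6.97 ± 0.821 to 4.63 ± 0.782 CPM in EV (SD, n = 3), and its WT call was lost without untreated or treated WT replicate 1, at -0.40 and -0.42. PCNA itself, at -0.15, 0.17 and -0.08, and the RAD18 partners UBE2A and UBE2B passed in no line. UBE2N and UBE2V2 of the same list fell in all 3 lines, by -0.43, -0.40 and -0.60 and by -0.42, -0.61 and -0.64. PCNA, UBE2A, UBE2B, UBE2N and UBE2V2 were chosen after their values were seen.

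Of the 12 subunits of the replicative polymerases and their primase, 2 were higher and 5 lower in EV, 3 higher and 5 lower in WT and 4 higher and 5 lower in MUT, with medians of -0.11, -0.02 and 0.08. The MUT count of 4 higher lies near the share of all tested genes, and in all 3 lines 1 was higher and 5 lower. POLA2, the second subunit of polymerase alpha, rose by 0.33, 0.60 and 0.33 in EV, WT and MUT. POLD2, which polymerase zeta shares with polymerase delta, fell from 351 ± 8.30 to 239 ± 8.55 CPM (EV), 362 ± 11.5 to 250 ± 10.4 CPM (WT) and 434 ± 44 to 260 ± 9.72 CPM (MUT) (SD, n = 3). Its log2 changes were -0.55, -0.53 and -0.74 (SE 0.0696, 0.0694 and 0.0695). The histone-fold subunits of polymerase epsilon fell as well, POLE3 by -0.94, -0.71 and -0.99 and POLE4 by -0.60, -0.48 and -1.09 on the log2 scale. All of these passed the edgeR test in every line. POLD3, which polymerase zeta also shares with polymerase delta, changed by -0.11, 0.01 and 0.20 in EV, WT and MUT. Of these only the rise in MUT passed the test, and POLD3 was named after its values were seen.

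Of the 5 other DNA polymerases tested, among 6 listed, 1 was higher and 1 lower in EV and 1 higher and 2 lower in each of WT and MUT, and in all 3 lines 0 were higher and 1 lower. The mitochondrial polymerase POLG fell in all 3 lines, with log2 changes of -0.32, -0.28 and -0.52 (SE 0.0786, 0.0781 and 0.0791). Of the 15 genes that work with POLQ in end joining or with MAD2L2 in shieldin, 1 was higher and 5 lower in EV, 1 higher and 4 lower in WT and 2 higher and 6 lower in MUT, and in all 3 lines 1 was higher and 4 lower. The medians were -0.16, -0.11 and 0.06 for these partners and -0.16, 0.11 and -0.21 for the other polymerases. SHLD2, a core subunit of shieldin, fell from 36.9 ± 1.84 to 17.8 ± 1.68 CPM (EV), 38.8 ± 2.66 to 22.6 ± 0.842 CPM (WT) and 36.4 ± 2.69 to 19.1 ± 1.09 CPM (MUT) (SD, n = 3), or by -1.06, -0.78 and -0.93 on the log2 scale. LIG3, the ligase of POLQ-mediated joining, changed by -0.64, -0.89 and -0.74 and NBN, a part of the end-resecting MRN complex, by -0.74, -0.74 and -0.55. TP53BP1, which recruits shieldin to breaks, rose by 0.30, 0.28 and 0.38, and its call was lost on leaving out untreated EV replicate 1 or 2, treated EV replicate 1 or 2, or any single WT library, and in EV and WT also without the low-count filter and with the authors' factors. Fitting the 2 MUT groups alone ended its MUT call, and without untreated MUT replicate 3 the MUT change was 0.16, with an edgeR adjusted p of 0.0496.

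**Figure D4:**
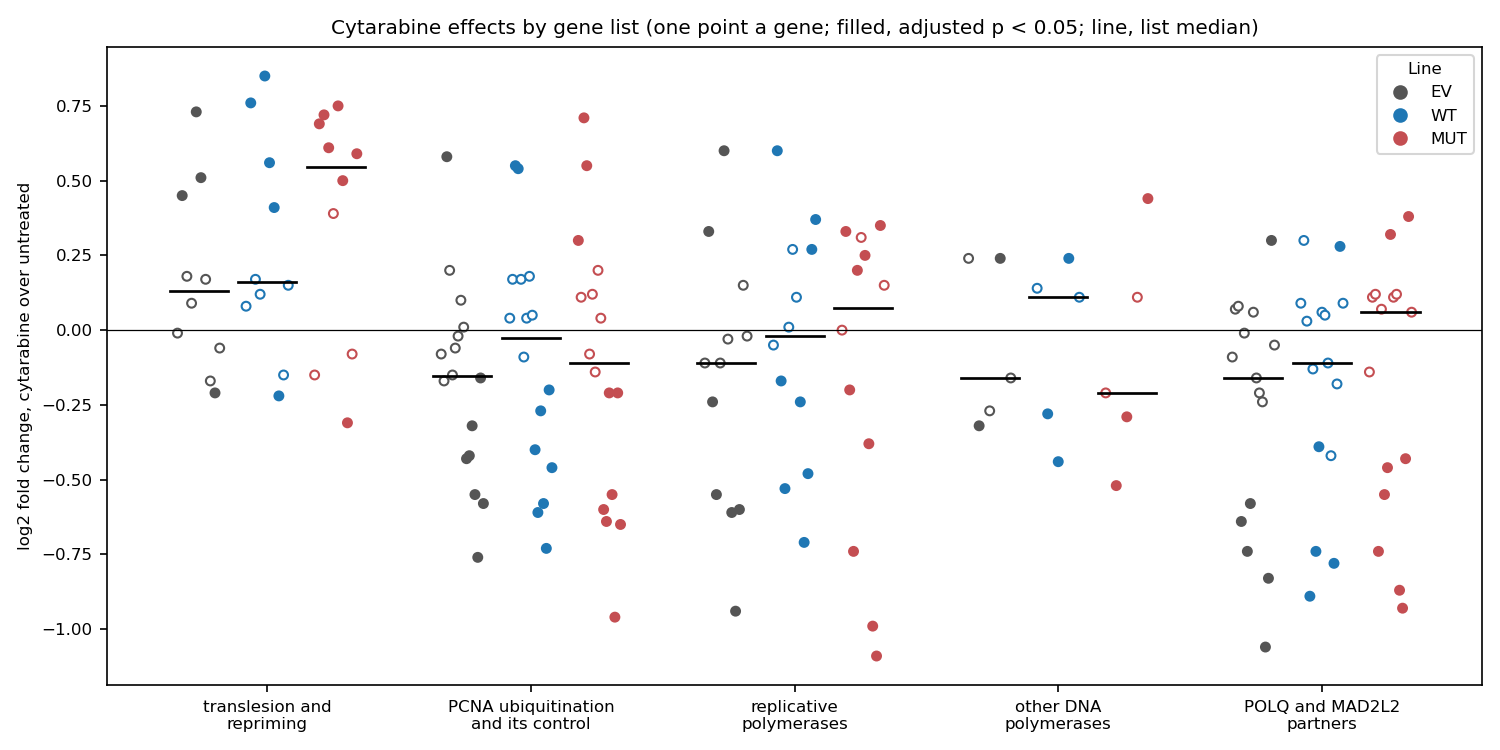
Log2 fold change of cytarabine over untreated (y axis) for each tested gene of 5 lists (x axis) in EV, WT and MUT, with filled points past the edgeR test and lines at list medians. The median of the 10 members in MUT is 0.54, and the PCNA list has 7 genes past the test below 0 in each line.

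The genes whose log2 CPM followed a member most closely over the 18 libraries were FGD6 for POLH (Pearson r 0.97), EPS8 for POLQ (0.973), SOS1 for REV3L (0.946), PPP1R14C for PRIMPOL (0.943), HDGFL2 for MAD2L2 (0.937) and ATG7 for RAD18 (0.933). The values were lower for ZNF260 with POLK (0.911), OSBP2 with POLN (0.897), FMNL1 with REV1 (0.893) and TMEM170A with POLI (0.835). These are descriptions over libraries that share 2 treatments and 3 lines, with no test.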

How the data were processed

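Total RNA was extracted with a Direct-zol kit and made into libraries with a NEBNext Ultra kit, per the labels' protocols. The counting tool and its strand setting are not given in the sources used here. Shared exonic bases were taken from GENCODE exons, which differ in places from the deposited gene coordinates. Reads were processed with CASAVA and STAR 2.6.1d on hg38, per the submitters' processing notes. The authors deposited estimated counts per gene, without normalization, and a normalized signal equal to 1 plus a factor per library times the estimated count, which was used for its factors only. Rounded estimated counts were tested in edgeR 4.0.16 under R 4.3.3 (filterByExpr, TMM scaling, 1 quasi-likelihood fit of all 18 libraries with 6 group coefficients, Benjamini-Hochberg adjustment over 18226 tested genes). Standard errors are the absolute log2 fold change over the square root of F. CPM uses TMM-scaled library sizes, and log2 CPM a prior count of 2. Intervals are 95%. p-values measure the spread between 3 cultures of 1 line each.

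The script was tested on simulated data. Alternatives were upper-quartile factors, DESeq2 size factors, DESeq2 1.42.0, no filter, a mean of at least 50 counts, fits of only the groups compared, a replicate block, each library left out, and, added after seeing the data, the authors' factors. The members and lists were chosen with earlier results of these data known. Besides the members, up to 3 rising and 3 falling genes of each list were named, by mean effect among those past the test in all 3 lines, and the most correlated gene of each member.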

Additional observations from a re-analysis of the deposited data

How the results depend on the processing

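The numbers of members called for the cytarabine effects were within 1.5 times of the main counts in every alternative. Leaving out 1 library gave 3 to 4 members in EV, 4 to 5 in WT and 6 to 7 in MUT. Those fits called 7839 to 8377, 7761 to 8080 and 9235 to 10258 of all tested genes. For the differences of effects it gave 0 to 1 for MUT against EV and 0 for the others, and DESeq2 gave 2 for MUT against EV. Over all genes, leaving out 1 library gave 8 to 666 for MUT against EV, 38 to 810 for MUT against WT and 12 to 53 for WT against EV. For untreated lines the ranges were 0 to 3 (MUT against EV), 0 (WT against EV) and 1 to 3 (MUT against WT), and under cytarabine 1 to 2, 1 and 1 to 3. Over all genes they were 2253 to 4386, 1385 to 1432 and 2784 to 4541 untreated. Under cytarabine they were 1539 to 2051, 1776 to 2477 and 2313 to 2866. Fitting just the compared groups gave 0, 1 and 0 members for the untreated comparisons in that order and 5 for treated MUT against WT. The calls over all genes were 935 of 16048, 5101 of 16173 and 1171 of 16356 untreated, and 6113 of 17223 for treated MUT against WT. Each such fit estimates its own spread from fewer libraries. Untreated MUT had the widest spread, so counts that use it rest on 3 unlike libraries.

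The sign changed in some values near 0, none past the threshold. In EV, REV3L became 0.015 with upper-quartile factors, and MAD2L2 became 0.07 with those factors, 0.051 with the filter at 50 mean counts and 0.005 with the EV groups fitted alone. The POLI difference for WT against EV became 0.002 with DESeq2 size factors, 0.004 in DESeq2, 0.006 without a filter and 0.003 with the authors' factors. Leaving out 1 library gave ranges for cytarabine in EV of -0.14 to 0.019 for REV3L, -0.03 to 0.01 for MAD2L2 and -0.009 to 0.14 for POLK. For differences of effects the ranges were -0.033 to 0.12 (REV1) and -0.19 to 0.01 (POLH) when MUT was set against WT. With WT set against EV they were -0.13 to 0.17 (POLI), -0.001 to 0.15 (POLQ), -0.11 to 0.29 (POLN), -0.014 to 0.13 (POLK) and -0.11 to 0.04 (RAD18). POLN was not tested at a mean of at least 50 counts.

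Replicate numbers are shared by the groups, but nothing says that they mark a common day, and over 45 same-numbered pairs the correlation of deviations from group means ran from -0.176 to 0.352, with 7 above 0.1. With the replicate block 4, 5 and 7 members were called for cytarabine in EV, WT and MUT, 0 for each difference of effects, 2, 0 and 4 for untreated MUT against EV, WT against EV and MUT against WT, and 2, 3 and 3 under cytarabine. Over all genes it called 8980, 8937 and 10254 for cytarabine. For the differences of effects it called 25 (MUT against EV), 166 (MUT against WT) and 47 (WT against EV). Between lines it called 3575, 2063 and 3820 untreated and 2449, 2984 and 3607 under cytarabine. POLI and POLN, with few counts, are the members whose differences the depth limits most.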
